A study of Mus musculus with 20 samples.

Results

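Swiss 2 is 1 of 4 preadipose clonal lines in a series of 20 arrays from 7 clones, and it was compared here with the preadipose clones Swiss 8 and Swiss 9 over all measured genes. The arrays were chosen by their titles: 3 of Swiss 2, 3 of Swiss 8 and 3 of Swiss 9, together 9 of the 20. All clones came from Swiss 3T3, an immortalized strain of mouse embryo fibroblasts, and per the labels their cells were grown in DMEM with 10% bovine serum, which does not induce differentiation, and were taken while still dividing. No clone carried a stated mutation or received a treatment. The series asks which genes mark fibroblasts committed to become fat cells, and setting 1 preadipose clone against others shows how far such clones differ among themselves. Each line is 1 clone, so a difference between lines is a difference between clones and not between classes of cells. Nothing in the labels says that the arrays of 1 line are separate cultures. Each p-value therefore measures only the spread between arrays, which may be technical.

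A preadipocyte is a fibroblast-like cell committed to the fat lineage that has not yet begun to store lipid. On induction, the transcription factors Cebpb and Cebpd act first and then Pparg and Cebpa, which switch on the genes of lipid uptake and storage. While such cells divide they make a fibroblast matrix of fibrillar and network collagens, small proteoglycans and microfibrils, and matrix stiffness, contractility and secreted factors such as Dlk1 are known to hold differentiation back.

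The 9 arrays were not of like brightness. The 3 Swiss 2 arrays were the dimmest of the series: their mean probe set intensity was 26.8 to 31.9, against 39.0 to 54.2 on the 6 others, and the hybridization spikes, bacterial and phage transcripts added to every sample, read 667 to 717 against 814 to 904. Their background, set on each array from 27 probe sets for bacterial transcripts that had not been added (their 95th percentile, after scaling), was 122 to 156 against 67.5 to 109, and the actin 3' to 5' ratio, a measure of RNA and cDNA integrity, was 1.06 to 1.08 against 0.969 to 1.03. For each of these 4 measures the groups did not overlap (exact two-sided permutation test, p = 0.0238, the smallest that 84 assignments can give, and 0.0357 adjusted over 6 measures). Clone and brightness therefore cannot be told apart in these 9 arrays. With the spike level as a covariate limma called no gene in any comparison of Swiss 2 (11 between Swiss 8 and Swiss 9). Against the mean of both clones 1257 genes then had an unadjusted p below 0.05, and the median standard error of the difference rose from 0.23 to 0.70 on the log2 scale. Swiss 3, a non-adipogenic clone, had 2 dimmer arrays (spikes at 844 and 975) and 1 brighter one (1706), none as dim as those of Swiss 2, and the dim minus bright difference in it had a median of -0.01 over the genes called higher in Swiss 2 and 0.01 over those called lower, with 0.00 over all genes. These medians do not show what the brightness of the Swiss 2 arrays does to a gene.

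**Figure D1:**
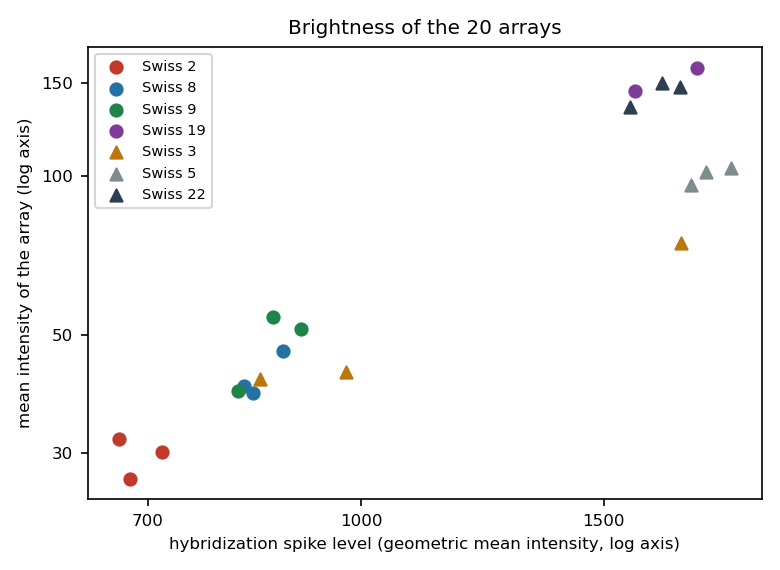
Mean intensity of each of the 20 arrays (log axis) against the geometric mean intensity of its 9 hybridization spike probe sets (log axis), 1 point per array, circles for preadipose and triangles for non-adipogenic lines. The 3 Swiss 2 arrays lie at the lower left, at spike levels of 667 to 717 and below the 814 to 904 of Swiss 8 and Swiss 9.

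By correlation over 7039 brighter genes, arrays of Swiss 2 agreed less among themselves (r = 0.958 to 0.966) than those of Swiss 8 (0.969 to 0.976) or Swiss 9 (0.980 to 0.984). Replicate 1 of Swiss 2 and replicate 3 of Swiss 8 lay toward each other, at r = 0.965, within the range of Swiss 2 itself, whereas arrays of Swiss 2 and Swiss 9 reached 0.923 to 0.945. Counts are therefore also given without each of these 2 arrays.

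Against the mean of Swiss 8 and Swiss 9, 131 genes (0.72% of 18193 tested) were higher in Swiss 2 and 164 (0.901%) lower, together 1.62%, with an adjusted p in limma under 0.05. Before adjustment, 3411 genes lay under 0.05. Values were scaled linearly to a common trimmed mean, and differences are on the log2(scaled intensity + 64) scale after quantile normalization, which understates the change of dim genes. With arrays centred on their medians instead, which moved the median difference of all genes from -0.01 to -0.17, 107 were higher and 914 lower. Without replicate 1 of Swiss 2 the counts were 46 and 75, and without replicate 3 of Swiss 8 they were 129 and 141. Every other omission of a single array cut each count by more than 1.5 times: to 11 and 17 without replicate 2 of Swiss 2, 16 and 39 without its replicate 3, 44 and 65 without replicate 1 of Swiss 8, 39 and 63 without its replicate 2, and 15 and 31, 9 and 19, and 14 and 26 without replicates 1, 2 and 3 of Swiss 9. The 3 Swiss 2 arrays lay outside the range of the 6 others for 128 of the 131 and 155 of the 164, against 5.54% of all genes on the high side and 5.41% on the low side. Of the called genes, all 131 and 163 of the 164 lay beyond the means of both other clones.

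Taken singly, the clones were unevenly far apart. Swiss 2 differed from Swiss 9 in 399 genes (2.19%) and from Swiss 8 in 22 (0.121%), and Swiss 8 from Swiss 9 in 48 (0.264%). These counts share arrays. At an unadjusted p below 0.05 the counts were 3303, 2815 and 1984. A variant of limma in which the prior variance follows brightness and outlying variances are down-weighted, called the trend fit below, gave 1683 (9.25%), 1069 (5.88%) and 589 (3.24%) calls, and 795 higher (4.37%) and 873 lower (4.8%) against the mean of both.

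A gene was said to set Swiss 2 apart when it passed against Swiss 8 and against Swiss 9 in the same direction and the 3 Swiss 2 arrays lay outside the range of the 6 others. This held for 6 higher genes (0.033%) and 13 lower ones (0.0715%). In the trend fit it held for 280 (1.54%) and 326 (1.79%), which contained all 6 and 12 of the 13. Leaving out replicate 3 of Swiss 8 gave 10 and 18, among which were 3 of the 6 and 8 of the 13, and leaving out replicate 1 of Swiss 2 gave 3 and 10, among which were 1 of the 6 and 3 of the 13. Without any of the other 7 arrays, at most 2 lower genes and no higher one met the rule, and 0 to 2 genes passed against Swiss 8. In the trend fit the lowest counts, 178 and 187, came without replicate 2 of Swiss 8.

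**Figure D2:**
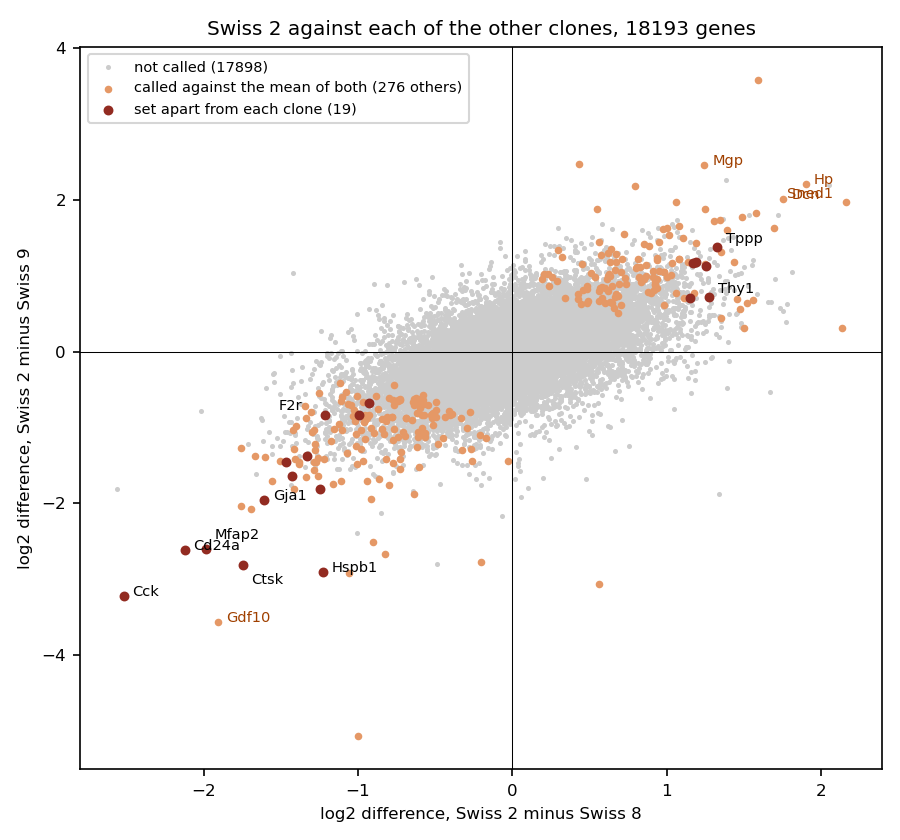
Log2 difference of Swiss 2 from Swiss 9 (vertical) against that from Swiss 8 (horizontal), 1 point per gene for all tested genes; both axes share the Swiss 2 arrays, so the cloud leans along the diagonal for that reason too. The 19 genes that set Swiss 2 apart lie in the lower left (13) and upper right (6), with Cck farthest out at -2.51 and -3.22.

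Genes that set Swiss 2 apart by being lower included a peptide hormone, surface proteins, a microfibril protein and a small heat shock protein. Cck, which encodes the peptide hormone cholecystokinin, read 64.2, 175 and 119 on the Swiss 2 arrays, 977, 1096 and 547 on those of Swiss 8 and 1374, 1460 and 1463 on those of Swiss 9. Only 1 Swiss 2 array exceeded its own background, and every array of the other clones lay above all of Swiss 2. With arrays below background set to background, the level of Cck was lower by at least 7.64-fold (adjusted p = 0.00378 for a log2 difference of -2.87 ± 0.23 SE; 0.0347 against Swiss 8 and 0.00253 against Swiss 9). Hspb1, a small heat shock protein that protects the actin cytoskeleton under stress, read 1176, 1133 and 939 in Swiss 2, 2599, 2557 and 2989 in Swiss 8 and 8863, 9447 and 9463 in Swiss 9. It was 5.53-fold lower than the mean of the others (adjusted p = 0.00083), and the 3 clones formed 3 separate levels, since Swiss 8 was also below Swiss 9 (log2 difference -1.67, adjusted p = 0.00669). A second, dimmer probe set of Hspb1 had a difference of -3.45.

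The 250 bases before the start site of these 2 genes are shown because they were the genes with the largest folds among the set-apart genes that had a promoter window, and because Hspb1 belongs to a family known to be driven through heat shock elements. They are from RefSeq on GRCm38.p6, written 5′ to 3′ along the gene, on chr9:121495695-121495944 (minus strand) for Cck and chr5:135887669-135887918 (plus strand) for Hspb1.
Cck: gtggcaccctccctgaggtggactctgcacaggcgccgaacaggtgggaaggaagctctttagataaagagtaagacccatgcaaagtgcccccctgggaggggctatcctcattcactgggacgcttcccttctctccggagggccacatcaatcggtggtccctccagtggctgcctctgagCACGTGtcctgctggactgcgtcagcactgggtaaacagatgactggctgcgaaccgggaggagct
Hspb1: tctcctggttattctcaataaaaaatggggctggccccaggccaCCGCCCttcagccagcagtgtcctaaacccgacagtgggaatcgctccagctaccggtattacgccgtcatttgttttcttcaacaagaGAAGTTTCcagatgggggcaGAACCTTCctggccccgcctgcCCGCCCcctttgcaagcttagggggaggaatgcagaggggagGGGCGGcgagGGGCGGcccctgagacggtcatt
Capitals mark every match to 6 motifs searched on both strands of a 300-base window that also held the first 50 bases of the gene: the E-box CACGTG, the heat shock element GAANNTTC, the cyclic AMP response element TGACGTCA, a TATA box TATAAA, the GC box GGGCGG and the CCAAT box CCAAT. Cck had an E-box 66 bases before the start, a motif found in 7.15% of 32851 such windows of the genome. Hspb1 had heat shock elements at 117 and 97 bases before the start, a motif found in 7.86%, and 4 GC boxes, which occur in 35.7%. Of the 19 genes that set Swiss 2 apart, 13 had a window, and in these the E-box was found in 1, the heat shock element in 2, the GC box in 8 and the CCAAT box, present in 37.4% of all windows, in 7. The TATA box (13.6%) and the cyclic AMP response element (1.79%) were found in none of the 13. A gene was counted when any of its windows held the motif, and Atf5 and Mfap2 had 2 windows each, whereas the percentages are per window. These matches describe letters and not bound sites.

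Among surface proteins, Cd24a, a lipid-anchored glycoprotein used to isolate early fat cell progenitors, had the lowest adjusted p of all the named genes. It read 236 to 271 on the Swiss 2 arrays, 1383, 1103 and 1065 in Swiss 8 and 1652, 1774 and 1673 in Swiss 9. It was 5.72-fold lower (log2 difference -2.37 ± 0.12 SE, adjusted p = 0.000737), all 3 of its probe sets were lower (-2.37, -2.13 and -1.14), and it was the only set-apart gene that remained so in 8 of the 9 refits that omit an array. Gja1, the gap junction protein connexin 43, read 1074, 684 and 775 in Swiss 2, 3071, 2562 and 2546 in Swiss 8 and 3336, 3080 and 4318 in Swiss 9. It was 3.73-fold lower (adjusted p = 0.00896), and all 6 of its probe sets had negative differences, from -0.49 to -1.92. F2r, the thrombin receptor PAR1, read 1628, 1523 and 1356 in Swiss 2, 4227, 3698 and 3328 in Swiss 8 and 2651, 3150 and 2796 in Swiss 9, a 2.20-fold difference (adjusted p = 0.0164) on which its 2 probe sets gave -1.02 and -1.08.

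A pair of matrix genes set Swiss 2 apart by being lower. Mfap2, a glycoprotein of elastic microfibrils, read 94.6, 109 and 98.4 in Swiss 2, all below background, and 389 to 662 in Swiss 8 and 685 to 932 in Swiss 9, a drop of at least 4.72-fold (adjusted p = 0.00244 for a log2 difference of -2.29 ± 0.17 SE). Its other probe set, near background throughout, had a difference of 0.19. Ctsk, the collagen-degrading protease cathepsin K, read 37.2, 31.6 and 12.3 in Swiss 2, again below background, while Swiss 8 read 182 to 258 and Swiss 9 read 470 to 563, at least 2.62-fold lower (adjusted p = 0.00157).

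The other lower genes of this kind handle RNA, nucleotides or have less studied roles. Rrs1, a ribosome assembly factor, read 726, 733 and 754 in Swiss 2, 2547, 2371 and 1778 in Swiss 8 and 2420, 2146 and 2091 in Swiss 9, so that the other clones were alike in level and Swiss 2 stood 3.02-fold below them (log2 difference -1.46 ± 0.14 SE, adjusted p = 0.00729). Ctu1, which thiolates tRNA, was at least 2.47-fold lower, Qtrt2, which inserts queuosine into tRNA, at least 2.63-fold, and Nadk2, the mitochondrial NAD kinase, 1.86-fold. Ccdc34, a coiled-coil protein, was 1.95-fold lower. Mex3b, an RNA-binding protein, was below background in Swiss 2 and close to it elsewhere, so its bound was only 1.07-fold, and it was the 1 gene of the 13 not set apart in the trend fit. For Nadk2, 1 of its 3 other probe sets, above background on all 9 arrays, had a difference of -0.14, and a dimmer one 0.06.

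Higher genes that set Swiss 2 apart and were bright enough to name by rule were Thy1 and Atf5. Thy1, the lipid-anchored surface glycoprotein CD90 of fibroblasts and mesenchymal progenitors, read 12230, 11775 and 12270 on the Swiss 2 arrays, 4397, 5267 and 5746 in Swiss 8 and 8032, 7634 and 7868 in Swiss 9. The Swiss 2 arrays lay close together and above all others, 1.86-fold higher than their mean (adjusted p = 0.0146; 0.0347 against Swiss 8 and 0.0424 against Swiss 9). Atf5, a stress-responsive transcription factor, read 7953, 7866 and 7610 in Swiss 2, 3247, 3330 and 4155 in Swiss 8 and 4946, 4951 and 5002 in Swiss 9, 1.83-fold higher (adjusted p = 0.0180). With an array left out, Thy1 passed against the mean of both clones in 5 of 9 fits and Atf5 in 4 of 9. The remaining 4 higher genes, Dusp26, a phosphatase, Kcnu1, a potassium channel subunit, Prss35, a protease homologue, and Tppp, which promotes tubulin assembly, read 91.2 to 172 on the Swiss 2 arrays and 24.8 or less on all others. Levels of that size were near the background of the Swiss 2 arrays, 122 to 156, which was itself higher than that of the other clones, and they are outside the naming rule.

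**Figure D3:**
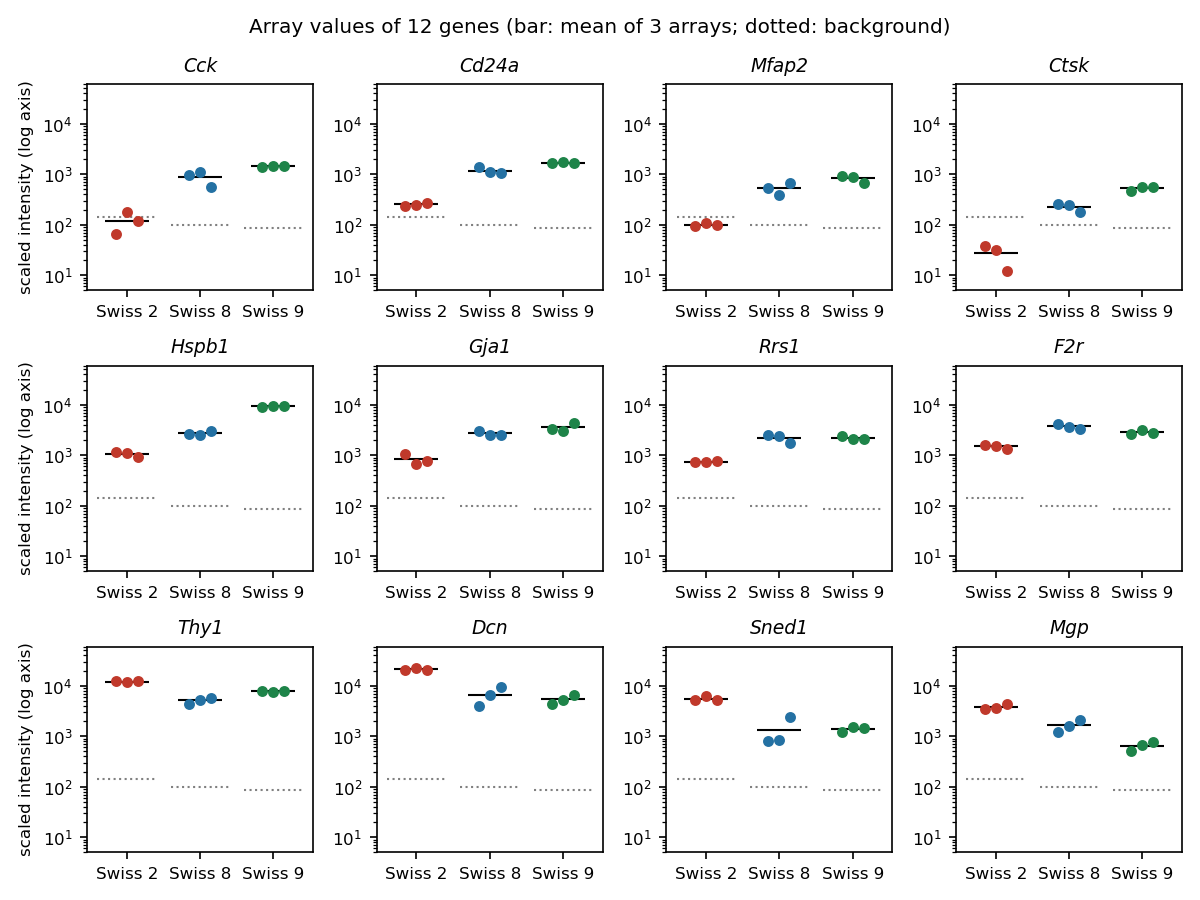
Scaled intensity (log axis) of 12 named genes on each of the 9 arrays, points for arrays, bars for the mean of the 3 arrays of a line and dotted lines for the mean background of that line. The means of Cck, Mfap2 and Ctsk lie below background in Swiss 2 and all their points above it in the other clones, while Thy1, Dcn, Sned1 and Mgp are bright in all 3 clones and highest in Swiss 2.

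A second and larger group passed against the mean of Swiss 8 and Swiss 9 with arrays that did not overlap, at least a 2-fold difference on the log2 scale from each clone, and set Swiss 2 apart in the trend fit; this rule was chosen after values were seen, and the 15 genes in each direction with the largest smaller difference are named, of 17 and 21 that met it. Among the 15 higher genes were secreted and matrix proteins. Dcn, the collagen-binding proteoglycan decorin, read 20094, 22515 and 20630 in Swiss 2, 4026, 6538 and 9317 in Swiss 8 and 4400, 5296 and 6655 in Swiss 9, 3.49-fold higher (log2 difference 1.88 ± 0.25 SE, adjusted p = 0.0185; 0.0715 against Swiss 8 alone). Replicate 3 of Swiss 8 was the nearest to Swiss 2, as it was for Sned1, a matrix glycoprotein, where it read 2399 against 823 and 850 in its own clone and 5233, 6133 and 5233 in Swiss 2. Sned1 was 4.01-fold higher (adjusted p = 0.027).

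Mgp, the matrix Gla protein that inhibits calcification, graded across the clones: 3497, 3688 and 4303 in Swiss 2, 1235, 1562 and 2143 in Swiss 8, and 519, 661 and 777 in Swiss 9 (3.33-fold, adjusted p = 0.011). Gas6, the vitamin K-dependent ligand of the TAM receptors, read 5895, 7354 and 6205 in Swiss 2 against 1757 to 3200 in the others (3.03-fold, adjusted p = 0.0138). Col6a2, a chain of the microfibrillar collagen VI, was 2.14-fold higher, Lama4, a laminin chain of basement membranes, 2.96-fold, Matn2, the adaptor matrilin 2, 2.63-fold, and Ccn3, a matricellular protein, 3.07-fold. Hp, the haemoglobin-binding plasma protein haptoglobin, which fat tissue also makes, read 892, 1284 and 1094 in Swiss 2, with means of 282 in Swiss 8 and 189 in Swiss 9 (4.63-fold, adjusted p = 0.0393). Scara5, a receptor for ferritin, was 2.76-fold higher, and Nnmt, which methylates nicotinamide, 2.46-fold. The cell cycle factor E2f2, at least 3.86-fold higher, was above background in Swiss 2 alone of the compared clones (238 to 446). It was also above background on all arrays of Swiss 19 (119 and 137) and of Swiss 5 (144 to 198). Impact, an imprinted regulator of translation, was 2.66-fold higher, the deubiquitinase Mindy2 2.24-fold and Zcchc24, a zinc finger protein, 2.18-fold. Other probe sets gave -0.14 and 0.46 for Mindy2, 0.25 for Zcchc24 and, mostly below background, 0.04 for E2f2 and -0.20 for Scara5. Adjusted p of the 15 ran from 0.0110 to 0.0433.

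Lower genes of the second group included signalling molecules and receptors. Gdf10, a secreted member of the TGF-beta family also called BMP3b, read 27, 52.6 and 20.5 in Swiss 2, below background, 159, 334 and 395 in Swiss 8 and 1301, 996 and 822 in Swiss 9. The bound was 4.62-fold lower or more (adjusted p = 0.00708 for a log2 difference of -2.73 ± 0.25 SE). Ptgs2, the inducible cyclooxygenase COX-2, read 507, 396 and 525 in Swiss 2, 1842, 1648 and 977 in Swiss 8 and 1445, 1438 and 1311 in Swiss 9, 3.03-fold lower (adjusted p = 0.0213). Ccn1, a matricellular protein induced by serum and by YAP, was likewise 3.03-fold lower at 586 to 794 against 1124 to 2545. A dimmer probe set of Ccn1 gave -2.02, and the remaining pair, above background on all 9 arrays, 0.09 and 0.00.

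The rest of that group was not above background on all Swiss 2 arrays, so the folds are bounds. They were Kdr, the VEGF receptor 2, at least 2.07-fold lower, Selp, the adhesion receptor P-selectin, at least 1.82-fold, Lrrc8d, a subunit of volume-regulated anion channels, at least 3.05-fold, Prr5l, an mTORC2 partner, at least 1.61-fold, and Gata4, a GATA transcription factor, at least 1.93-fold. Mutyh, a DNA repair glycosylase, was at least 2.33-fold lower, Mdn1, a ribosome assembly ATPase, at least 2.63-fold, the capping enzyme Rngtt at least 2.33-fold, and lamin B2 (Lmnb2) at least 2.39-fold. Clec4f, a lectin, the membrane protein Xkr5 and the noncoding RNA Morrbid were lower by at least 1.45-fold, 2.19-fold and 2.04-fold. Other probe sets went the other way for Rngtt (0.09), Lmnb2 (0.08), Mdn1 (0.72 and 0.47), Selp (0.86), Prr5l (0.12) and Morrbid (0.12), while Selp and Prr5l each had a further one at -0.30 and -0.42. Of these 6 genes, only Rngtt and Lmnb2 had the opposing probe set above background on all 9 arrays.

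Few genes of fat cell formation were called. Of 29 measured adipogenic regulators, 1 was called higher and 2 lower (0.72% and 0.901% of all genes), with a median difference of 0.09 against -0.01 over all genes. The lower ones were Krüppel-like factors that act early in differentiation: Klf4 read 1203, 937 and 926 in Swiss 2, 1778, 1555 and 1911 in Swiss 8 and 2551, 2154 and 2512 in Swiss 9 (2.03-fold, adjusted p = 0.0247), and Klf5 was 2.37-fold lower (adjusted p = 0.0306). Klf4 and Klf5 passed against Swiss 9 and not against Swiss 8 alone, and 2 other probe sets of Klf5 had differences of -0.04 and, near background, 0.84. Rxra, the partner of Pparg in its DNA-binding dimer, was 1.54-fold higher on the probe set used, while its others gave -0.16 and, below background, -0.29.

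Pparg itself read 740, 726 and 516 in Swiss 2, 522, 516 and 451 in Swiss 8 and 856, 599 and 636 in Swiss 9, and its groups overlapped (log2 difference 0.14 ± 0.16 SE, adjusted p = 0.700). Cebpb, at 9487 to 10905 in Swiss 2 and 9878 to 12428 in the others, differed by -0.04 ± 0.11, and Cebpa by 0.47 ± 0.17 without passing (adjusted p = 0.1996). Of 32 anti-adipogenic regulators, only Dlk1 was called: the secreted preadipocyte factor 1 was among the brightest genes, at 41000, 45759 and 46171 in Swiss 2, 24691, 27298 and 28624 in Swiss 8 and 23029, 21695 and 20973 in Swiss 9 (1.82-fold higher, adjusted p = 0.0181). The list itself leaned low, with 11 positive and 21 negative differences and a median of -0.11. The trend fit called 3 of the 32 higher and 4 lower (4.37% and 4.8% of all genes). Of 26 genes of mature adipocytes, the lipid droplet protein Plin2 was 1.44-fold higher and the fatty acid binding protein Fabp5 1.85-fold lower, the latter at 4344 to 6040 in Swiss 2, while Swiss 8 read 9653 to 13224 and Swiss 9 read 7134 to 7524. The adipocyte protein Fabp4 read 480, 390 and 119 in Swiss 2 and 228 to 382 in the others and did not pass (adjusted p = 0.868). The calls in these lists stand beside 0.72% higher and 0.901% lower over all genes.

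Progenitor surface markers moved in both directions. Of 22 measured, Thy1 was higher and Cd24a and Cd44 lower, beside 0.72% and 0.901% of all genes. Cd44, the hyaluronan receptor, read 3037, 2916 and 2848 in Swiss 2, 4888, 4667 and 4086 in Swiss 8 and 6655, 6901 and 7567 in Swiss 9, 1.97-fold lower (adjusted p = 0.0181).

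Matrix genes were called in both directions. Of 22 collagens, the collagen VI chains Col6a1 and Col6a2 were called higher and none lower (0.72% and 0.901% of all genes), 15 of 22 had positive differences and the median was 0.29, which shrank to 0.04 with arrays centred on their medians instead of quantile-normalized, a scaling that moved the median of all genes to -0.17. Col6a1 read 13909, 14866 and 14090 in Swiss 2, 6488, 7483 and 9621 in Swiss 8 and 7690, 7987 and 8191 in Swiss 9 (1.81-fold, adjusted p = 0.0287). In the trend fit 8 collagens were called higher, Col1a1 among them (1.43-fold on scaled intensity, adjusted p = 1.6e-05), and 1 lower, against 4.37% and 4.8% of all genes. A second probe set of Col1a1, above background on all arrays, had a difference of -0.56. Of 44 elastic fibre and matrix glycoprotein genes, 3 were higher, Lama4, Matn2 and Ccn3, and 4 lower, Mfap2, Ccn1, Tnc and Nid1, again beside 0.72% and 0.901% of all genes. Tnc, the glycoprotein tenascin C, averaged 942 ± 57.5 (SD, n = 3) in Swiss 2 and read 1665 to 2931 in the others (2.41-fold, adjusted p = 0.0215).

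Matrix-degrading enzymes and their inhibitors were also divided, with 3 of 36 higher and 3 lower (0.72% and 0.901% of all genes). Mmp2, the gelatinase MMP2, read 8101, 9578 and 9369 in Swiss 2, 3716, 4464 and 5615 in Swiss 8 and 3034, 3181 and 3310 in Swiss 9, and its 2 probe sets gave 1.28 and 1.18 (2.32-fold, adjusted p = 0.0153). Cst3, the cysteine protease inhibitor cystatin C, was 1.42-fold higher and the serine protease Prss23 2.37-fold lower, with all 3 probe sets of Prss23 negative. Among proteoglycans Dcn was the 1 called of 25, and among 33 adhesion receptors the cadherins Cdh11 (1.67-fold) and Pcdh7 (2.44-fold) were lower.

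Contractile genes leaned low. Of 27 contractile and smooth muscle genes, 3 were called lower and none higher (0.901% and 0.72% of all genes), 23 of 27 had negative differences, and the median was -0.29. It was -0.46 with median-centred arrays, a scaling that moved the median of all genes to -0.17. With the mean over probe sets it shrank to -0.12, with 1 called lower and 5 of 27 positive. Quantile normalization over the 9 arrays called 2 lower. The trend fit called 10 lower and 0 higher, with 4.8% and 4.37% over all genes. Myl9, a regulatory myosin light chain, read 1132, 793 and 877 in Swiss 2, 2048, 2016 and 1532 in Swiss 8 and 4175, 3441 and 4218 in Swiss 9 (3.11-fold, adjusted p = 0.0136). Actn1, the actin crosslinker alpha-actinin 1, was 1.64-fold lower with all 3 probe sets negative, and Actg2, smooth muscle gamma-actin, was at least 3.21-fold lower but overlapped with Swiss 8, where it read 160 to 343 against 31.6 to 172.

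DNA replication genes also leaned low. Of 45 replication genes, 2 were called lower and 1, E2f2, higher (0.901% and 0.72% of all genes), while 40 of 45 had negative differences with a median of -0.28. The trend fit called 11 lower and 1 higher (4.8% and 4.37% of all genes), and with the mean over probe sets limma without the trend called 0, with a median of -0.19. Ccne1, the cyclin that starts S phase, read 1162, 1042 and 1098 in Swiss 2 and 1802 to 2972 in the others (2.06-fold, adjusted p = 0.0398), and Rrm2, a subunit of ribonucleotide reductase, 4223, 2979 and 3926 against 5578 to 7257 (1.75-fold, adjusted p = 0.0493). All 3 probe sets of Rrm2 were lower, at -0.73, -0.77 and -0.84. Neither Ccne1 nor Rrm2 passed in limma against Swiss 8 alone (adjusted p = 0.0875 and 0.101) or against Swiss 9 alone (0.0568 and 0.0752). Of 48 mitosis genes 0 were called in limma as reported, 23 had positive and 25 negative differences, and the trend fit called 2 higher and 8 lower; the difference between the 2 lists was not tested. With median-centred arrays the medians were -0.53 for replication and -0.27 for mitosis, of which 4 of 48 were then positive, and with the mean over probe sets 15 of 48 mitosis genes were positive, with a median of -0.086.

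**Figure D4:**
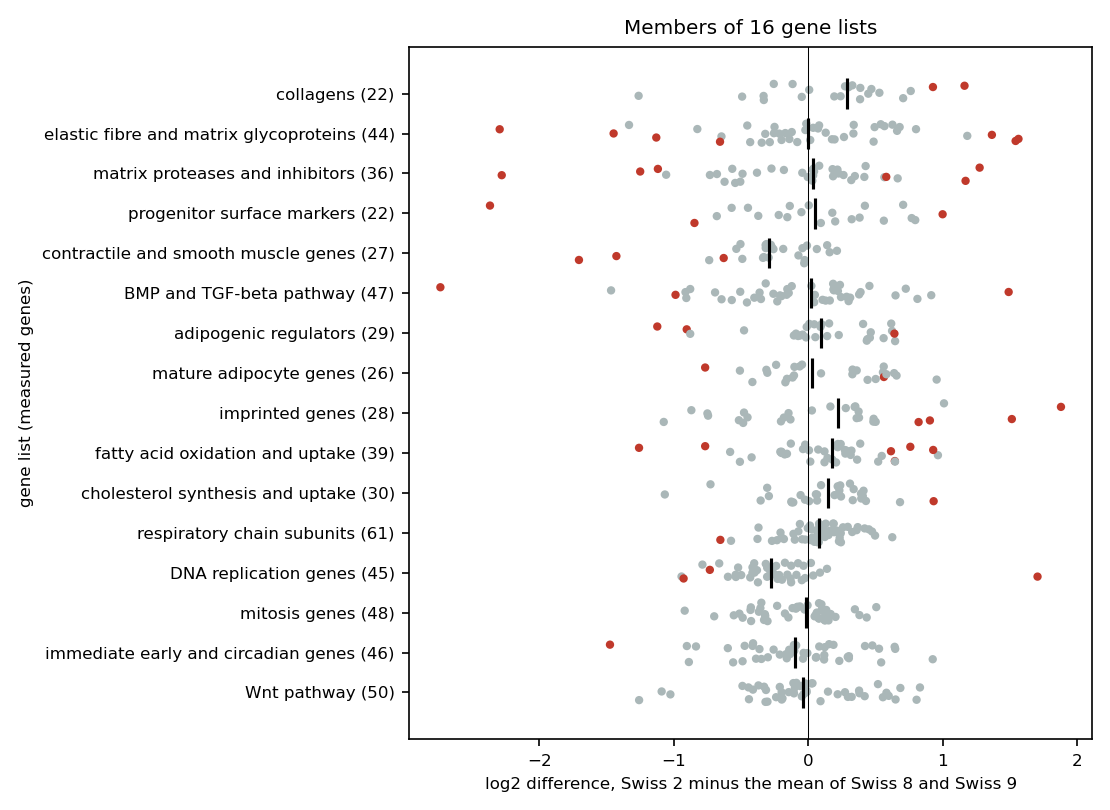
Log2 difference of Swiss 2 from the mean of Swiss 8 and Swiss 9 for each measured member of 16 gene lists, 1 point per gene, red where the adjusted p was below 0.05, with a black bar at the list's median. Points of the replication and contractile lists lie mostly left of 0, with medians of -0.28 and -0.29, and those of the collagens mostly right, with a median of 0.29.

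Calls in the signalling lists were few, as they were over all genes (0.72% higher and 0.901% lower). In the BMP and TGF-beta list, 1 of 47 was higher and 2 lower: Inhbb, the beta B chain of activin and inhibin, read 1480, 1326 and 1557 in Swiss 2, 730, 827 and 964 in Swiss 8 and 236, 246 and 317 in Swiss 9 (2.63-fold, adjusted p = 0.00729), and Id4, a BMP-induced inhibitor of helix-loop-helix factors, was 2.13-fold lower with all 3 of its probe sets negative. The second lower one was Gdf10. Ereg, the EGF family ligand epiregulin, was 2.78-fold lower, the 1 of 34 called in its list, and Igfbp6, which binds IGF2, 2.12-fold higher, the 1 of 28. Notch1 was 2.03-fold higher, and of 50 Wnt pathway genes 0 were called as reported. The trend fit called 2 of the 50 higher and 1 lower, beside 4.37% and 4.8% of all genes. Among patterning factors Gata6 was 1.67-fold and Hoxd8 1.63-fold higher, and Tbx5, near background, was at least 1.27-fold lower. Ptgs2 was the 1 called of 46 immediate early and circadian genes. Of 43 chemokine and cytokine genes, Ccl7 (1.58-fold) and Tnfrsf12a, the TWEAK receptor (2.10-fold), were lower.

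Imprinted genes had 4 of 28 called higher and 0 lower, beside 0.72% and 0.901% of all genes. These were Dlk1, Impact, Dcn and Sgce, the sarcoglycan epsilon, which read 1743, 1519 and 1459 in Swiss 2 and 739 to 909 in the others (1.89-fold, adjusted p = 0.0178). Positive differences were seen in 16 of the 28, with a median of 0.22, which was 0.05 with a pseudocount of 32 and no scaling. The trend fit called 8 higher and 0 lower (4.37% and 4.8% of all genes), and with the mean over probe sets in place of the brightest one 0 were called, though 18 of 28 were then positive.

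Metabolic genes pointed both ways. Of 39 genes of fatty acid oxidation and uptake, 4 were higher and 2 lower (0.72% and 0.901% of all genes), which became 1 and 3 with median-centred arrays and 1 and 1 with the mean over probe sets. Acadm, which oxidizes medium-chain fatty acids, read 2733, 2758 and 3078 in Swiss 2, 1748, 1969 and 2301 in Swiss 8 and 1412, 1564 and 1434 in Swiss 9 (1.64-fold, adjusted p = 0.0333). Lipa, the lysosomal acid lipase, was 1.83-fold higher, Cpt1c, a brain-type carnitine palmitoyltransferase, 1.54-fold and Angptl4, an inhibitor of lipoprotein lipase, 1.49-fold. Acot1, a thioesterase of acyl-CoA, was 2.70-fold lower; Swiss 9 read 726 to 945, Swiss 8 291 to 326 and Swiss 2 190 to 247. Lpl, the lipase that feeds fatty acids to fat cells, did not pass (adjusted p = 0.1996): it read 2455 to 3554 in Swiss 2, 1018 to 1727 in Swiss 8 and 3002 to 3856 in Swiss 9.

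Other called metabolic and stress genes were the cholesterol exporter Abca1 (1.90-fold higher), the lipoprotein receptor Vldlr (2.23-fold higher), the hypoxia-inducible factor Epas1 (1.97-fold higher), Ndrg1 (2.22-fold higher), whose 5 probe sets were all positive, and the vasoactive peptide adrenomedullin, Adm (2.04-fold lower). Of 48 antioxidant genes, Gstm1, a glutathione transferase, was 2.21-fold higher at 8360 to 8796 against 3094 to 5444, though 1 of its 3 other probe sets, above background throughout, gave -0.37. The quinone reductase Nqo1 (1.99-fold) and the thioredoxin reductase Txnrd1 (1.65-fold) were lower. Cytochrome c, Cycs, read 8385, 7410 and 7922 in Swiss 2 and 11695 to 14701 in the others (1.69-fold lower, adjusted p = 0.0340). It was the 1 of 61 respiratory chain genes called, where 0.72% of all genes were called higher and 0.901% lower. Of the 61, 45 had positive differences, with a median of 0.083, but 10 with median-centred arrays, with a median of -0.20. The trend fit called 13 of them higher and 6 lower (4.37% and 4.8% of all genes). The arginine transporter Slc7a1 was 1.90-fold lower. The growth arrest gene Btg2 was 1.61-fold higher and the polo-like kinase Plk2 1.87-fold lower.

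Only 22 genes passed against Swiss 8, so most of the 295 called against the mean of both clones did not pass against Swiss 8 alone. For some of these, Swiss 2 lay nearer to Swiss 8 and far from Swiss 9. Serping1, the C1 inhibitor of complement, read 274, 288 and 230 in Swiss 2 and 156, 196 and 85.4 in Swiss 8, but 2140, 2679 and 2618 in Swiss 9; it did not pass against Swiss 8 (adjusted p = 0.279). H2-K1, a class I histocompatibility molecule, read 4175 to 4679 in Swiss 2, 4441 to 4895 in Swiss 8 and 12560 to 14076 in Swiss 9, and Nid1, the basement membrane protein nidogen 1, 17618 to 20121, 20184 to 23932 and 43499 to 45256. All 3 also differed between Swiss 8 and Swiss 9 (adjusted p = 0.00251, 0.00669 and 0.0317). Matn4, a matrilin of cartilage, was 2.15-fold higher in Swiss 2, with Swiss 9 the nearer clone.

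Markers of fibroblasts and of other cell types were read in the same way. Over all genes limma as reported called 0.72% higher and 0.901% lower, and the trend fit 4.37% and 4.8%. All 20 fibroblast identity markers were above background in at least 1 of the 3 lines, with Thy1 and Dcn called higher and none lower. Of the 20, 13 had positive and 7 negative differences, with a median of 0.18, and the trend fit called 6 higher and 2 lower. With median-centred arrays 7 of the 20 were positive, the median was -0.11, and 2 were called higher and 1 lower. Of 31 skeletal muscle, 30 leukocyte and 28 epithelial markers 0 were called in either direction (limma as reported and the trend fit), and 12, 19 and 18 of them were above background in at least 1 line. Kdr was the 1 called of 31 endothelial and pericyte markers, Matn4 the 1 of 25 osteoblast and chondrocyte markers and Cck the 1 of 30 neural and glial markers.

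Set beside the 4 other clones, Swiss 2 was the most extreme of all 7 lines for 89 of its 131 higher and 113 of its 164 lower genes. The genes were chosen for being extreme in Swiss 2, and most arrays of the 4 other clones were brighter, so this is a description. Line means of Cck were 119 ± 55.6 (SD, n = 3) in Swiss 2, 873 ± 289 in Swiss 8, 1433 ± 50.5 in Swiss 9 and 872 ± 106 (SD, n = 2) in Swiss 19, against line means of 4584 to 9366 in the non-adipogenic clones Swiss 3, Swiss 5 and Swiss 22. Swiss 2 thus lay at the low end of a gene that was lower in every preadipose clone than in every non-adipogenic one. Gdf10 and F2r had the same order, with Gdf10 at 33.4 ± 17.0 in Swiss 2, 296 to 2374 in the other preadipose lines and 4403 to 9941 in the non-adipogenic ones, and F2r at 1503 ± 137, 2865 to 6693 and 10003 to 14424.

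Atf5, Hp and Scara5 ran the other way. Atf5 was 7810 ± 178 in Swiss 2 and 3578 to 8583 in the other preadipose clones, Swiss 19 being the highest, but 1561 to 1798 in the non-adipogenic clones. Scara5 was 3225 ± 496 in Swiss 2, 709 to 1282 in the other preadipose clones and 114 to 568 in the others, and Hp 1090 ± 196, 189 to 282 and 11.9 to 26.9. For Dcn the Swiss 2 level was not particular to it: Swiss 19 read 16193 ± 376, Swiss 5 17435 ± 1812, Swiss 22 24784 ± 3489 and Swiss 3 54324 ± 2808, so that Swiss 8 and Swiss 9, at 6627 ± 2646 and 5450 ± 1135, were the low ones. Gas6 was higher in Swiss 19 and Swiss 3 than in Swiss 2, and Col6a1 in Swiss 3. Sned1 (5533 ± 520 against 436 to 2522) and Mgp (3829 ± 421 against 405 to 1848) were highest in Swiss 2 of all 7 lines, and Cd24a, Mfap2 and Hspb1 lowest. Gja1 and Rrs1 were nearly as low in Swiss 3 (1105 ± 78.2 and 760 ± 29.5) as in Swiss 2 (844 ± 204 and 738 ± 14.5), as was Qtrt2 (160 and 155). Nadk2 was lower in Swiss 3, Swiss 5 and Swiss 22 (705, 1010 and 1024) than in Swiss 2 (1137), and Ccdc34 in Swiss 3 (318 against 396). Lama4, Impact and Mindy2 were higher in Swiss 3 than in Swiss 2. Swiss 3 lay nearer to Swiss 2 than to the mean of Swiss 8 and Swiss 9 for 63 of the 131 higher and 73 of the 164 lower genes.

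**Figure D5:**
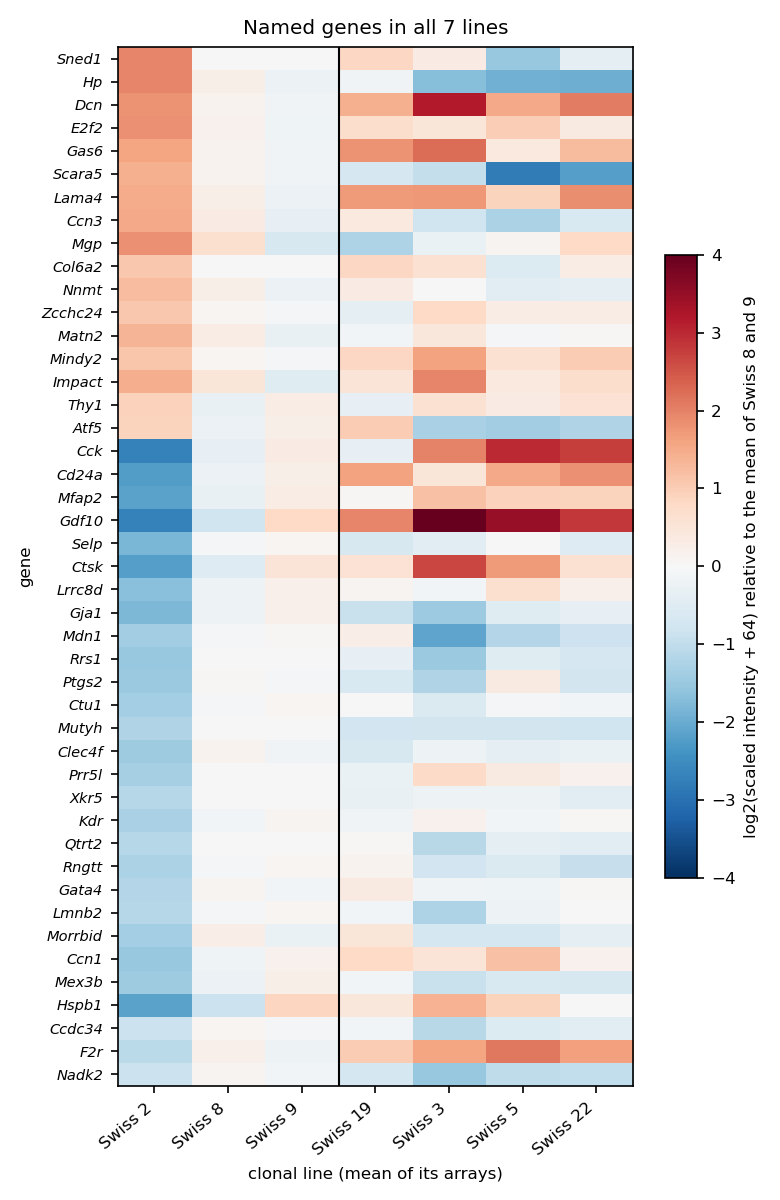
Log2(scaled intensity + 64) of each named gene as the mean of each line's arrays, relative to the mean of Swiss 8 and Swiss 9 (colour, from -4 in blue to 4 in red), genes in rows and the 7 clones in columns, with a line between the compared clones and the other 4. The first column is coloured by the choice of genes; in the columns right of the line, Cck, Gdf10 and F2r are red, opposite to Swiss 2, in all non-adipogenic clones, whereas Dcn is red like Swiss 2.

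Along the genome, neighbouring genes were taken in runs of 5 over 14049 placed genes that were above background in at least 1 of the 3 lines. Because the background of Swiss 2 was higher, genes lower in Swiss 2 met this filter more easily than genes higher in it. The sign of the runs below is therefore a description only. The median differences of 13963 runs lay between -1.13 and 0.86, with 95% of them between -0.49 and 0.40. All 3 runs with the largest absolute median were negative: Angpt2, Agpat5, Xkr5, Defb6 and 9530057J20Rik (-1.13), Hdgfl3, Bnc1, Sh3gl3, Adamtsl3 and Saxo2 (-1.06), and BC055324, Mettl18, Sele, Selp and Slc19a2 (-0.97). Of these 15 genes Xkr5, Selp and the thiamine transporter Slc19a2 were called, Slc19a2 being the brightest of the 3 at 1018 to 1242 in Swiss 2 against 1716 to 2212 in the others (1.74-fold lower, adjusted p = 0.0268). Most of the others were at or near background in Swiss 2. Mettl18, Sele, Saxo2 and 9530057J20Rik were above background on 4 of the 6 other arrays and below background on all 3 Swiss 2 arrays. Bnc1, a zinc finger protein, was above it on all arrays, at 253 to 377 against 555 to 969, and missed the threshold (adjusted p = 0.054; 0.00308 in the trend fit).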

How the data were processed

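RNA of dividing cells was hybridised to expression arrays, and the authors deposited a linear intensity for each of 45101 probe sets and 20 arrays; of the summarization software and any scaling, the sources used here say nothing. Each array was scaled to a trimmed mean of 500 (2% trimmed at each end), log2(scaled intensity + 64) was taken, and arrays were quantile-normalized. Each gene was represented by its probe set of highest mean, among 34945 with 1 symbol, which left 18193 genes. limma 3.58.1 in R 4.3.3 fitted 1 term per line over 9 arrays (lmFit, eBayes, Benjamini-Hochberg adjustment over all genes, threshold 0.05). The script was tested on simulated data. Folds are ratios of group means of scaled intensity, with arrays below background set to it ("at least"). All set-apart genes whose brighter group was above background were named; further rules are given with the results, and called list members and the genes beside them were chosen after values were seen. The comparisons, members and lists were chosen with earlier results of these data known. The number of arrays limits the precision.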

Additional observations from a re-analysis of the deposited data

How the results depend on the processing

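The direction of the named genes held under most settings, but the number of calls did not. Of 125 named genes, 107 passed as reported, 106 with quantile normalization over the 9 arrays alone, 76 with a pseudocount of 16, 49 with the mean over probe sets and 14 to 91 with an array left out. Counts are given as higher and lower against the mean of both clones, then against Swiss 8, against Swiss 9 and between Swiss 8 and Swiss 9, then set apart higher and lower. They were 73, 101, 35, 216 and 27 with a pseudocount of 16 (4 and 16 set apart), 465, 507, 334, 1038 and 154 with the larger pseudocount (88 and 98), and 638, 677, 644, 1334 and 324 with 32 and no scaling (186 and 187). With the filter on dim genes they were 306, 366, 112, 666 and 77 (20 and 50), with the trend fit 795, 873, 1069, 1683 and 589 (280 and 326), and with all 20 arrays in 1 fit 863, 988, 1158, 1865 and 518 (268 and 326). The mean over probe sets gave 54, 71 and, against Swiss 9, 211, the median-centred arrays 914 lower, 73, 1229 and 49 set apart lower, and quantile normalization over the 9 arrays 41 against Swiss 8. The spike level as a covariate gave 0, 0, 0, 0 and 11 (0 and 0), and in the trend fit, a choice made after seeing the data, 0, 1, 0, 11 and 459 (0 and 0). With each line's mean as 1 sample 0 and 0 were called, 1582 genes had an unadjusted p below 0.05 and the lowest limma adjusted p was 0.474.

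Leaving out each array in turn gave 9 to 129 higher and 17 to 141 lower, 0 to 47 against Swiss 8, 32 to 300 against Swiss 9, 1 to 30 between Swiss 8 and Swiss 9, and 0 to 10 and 0 to 18 set apart. In the trend fit, added after seeing the data, these ranges were 525 to 840, 604 to 873, 546 to 1179, 1029 to 1731, 265 to 630, 178 to 333 and 187 to 343. Deviations of same-numbered arrays from the means of their lines correlated at r from -0.025 to 0.096 (median 0.007, none of 9 pairs over 0.1). For differently numbered arrays of different clones r ran from -0.14 to 0.082 (median -0.011, 18 pairs). With 3 arrays per line these values cannot settle whether the numbers pair the samples. The replicate block gave 11, 17, 0, 37 and 1 calls (0 and 0 set apart), and 813, 901, 1110, 1700 and 611 (304 and 319) in the trend fit.

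Some log2 differences that had not passed changed sign, and the cause was not tested. With an array left out Defb6 ranged from -0.32 to 0.21 (positive without replicate 3 of Swiss 2 and, at 0.12, replicate 1 of Swiss 9) and BC055324 from -0.65 to 0.10 (positive without replicate 3 of Swiss 2). Mettl18 was 0.085, Pparg -0.17, Cebpb 0.34 and Fabp4 0.83 with the spike covariate in both fits. Pparg was -0.073 with median-centred arrays, and Cebpb 0.17 and Col1a1 -0.084 with the mean over probe sets. Likewise Cebpb ranged from -0.13 to 0.0027 (positive without replicate 3 of Swiss 2 and, at 0.0013, its replicate 1) and Fabp4 from -0.51 to 0.37 (positive without replicate 3 of Swiss 2). Genes below the background of the dim Swiss 2 arrays have bounds only.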

Other observations

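A further 5 genes called lower in Swiss 2 by limma were picked after their values were seen, because they were lower; no list of such genes was tested. Nhp2, a protein of box H/ACA ribonucleoproteins, read 3828, 2912 and 3582 in Swiss 2, 7400, 6724 and 5188 in Swiss 8 and 7581, 6954 and 6728 in Swiss 9 (1.97-fold lower, adjusted p = 0.0359). Dkc1, the pseudouridine synthase of the same particles, was 1.95-fold lower with all 3 probe sets negative (-0.88, -0.81 and -0.51; adjusted p = 0.0413). Pno1, which acts in assembly of the small ribosomal subunit, read 1249 to 1533 in Swiss 2 and 2210 to 3236 in the others (1.99-fold, adjusted p = 0.0181). Ddx18, a nucleolar RNA helicase, was 1.95-fold lower (adjusted p = 0.0268), on which another probe set above background on all 9 arrays gave -0.10. Hsph1, a chaperone of the HSP110 family, read 2593 to 3290 in Swiss 2 and 5122 to 7186 in the others (2.05-fold, adjusted p = 0.0247). The arrays of Swiss 2 did not overlap with the others for any of these 5 genes, and none passed against Swiss 8 alone.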
